A study of Mus musculus with 6 samples.

Results

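Expression of 36 genes of DNA replication and S phase was described in the mouse colon under dextran sodium sulfate (DSS) colitis. The genes were taken by symbol from a table of 21899 genes, and all 36 had a row. No measured value enters that rule, but the list was drawn up with earlier results of these data known. The comparison set 3 libraries of Adamts4 knockout (KO) mice against 3 of wild-type (WT) mice, and every animal of both groups had received 2.5% DSS for 7 days. ADAMTS4 is a protease released into the extracellular matrix, where aggrecan and versican are among its substrates. DSS, given to mice to model colitis, damages the lining of the colon. The knockout allele, the cells it acts in, and the strain, age and sex of the mice are unknown from the sources used here. They also do not say whether a library came from a single animal. Untreated mice were not analysed here. A p-value below therefore measures only the spread between these 6 libraries, and differences in background or housing cannot be told apart from the genotype.

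DNA replication is prepared in G1, when the origin recognition complex, CDC6 and CDT1 load the ring of MCM2 to MCM7 onto chromatin, a step called licensing. At the start of S phase the ring is turned into an active helicase by CDC45 and the GINS complex, primase lays down primers, and polymerases held by the sliding clamp PCNA copy both strands. Most of these genes are transcribed at the border of G1 and S phase by E2F factors, so their RNA follows the number of cycling cells. In the healthy colon such cells sit in the lower crypt, and after DSS injury crypt proliferation restores the epithelium. In bulk tissue, fewer cycling cells and less replication RNA per cell cannot be told apart.

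The libraries held 15786214 to 22932125 counts, and 16333 to 16601 genes had at least 1 count in each. The 36 genes were covered by 10650 to 22711 counts per library, and the lowest single value was 21 counts, for Gins1 in WT 1. Adamts4 had 0 counts in each KO library and 900, 992 and 997 counts in the WT libraries (edgeR quasi-likelihood test, adjusted p = 0.00213). Mitochondrial transcripts took 4.03%, 7.66% and 9.50% of the counts in the KO and 6.05%, 4.29% and 4.46% in the WT libraries. KO 3 lay farthest out along principal component 1 (43.7% of the variance) and WT 1 along principal component 2 (26.3%). As a check of the tissue, the epithelial genes Epcam and Krt8 measured at least 1198 and 3050 CPM (the share of a library's counts, on the usual per-million scale, with TMM scaling) in every library.

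The regulatory sequence of these genes is shown first. The choice of genes did not read promoter letters, but most of these genes are transcribed by E2F factors. A higher share of E2F letters could therefore be foreseen from the kind of gene chosen. Promoters of 30 of the 36 genes were matched by symbol in a RefSeq table of build GRCm38.p6. The 250 bases before each start were searched on both strands for TTTCGCGC, TTTGGCGC or TTTCCCGC, letters bound by E2F factors. They were present in 10 of the 30 promoters (33.3%), namely those of Orc1, Cdc6, Mcm5, Mcm6, Mcm7, Gins3, Pola1, Rfc3, Uhrf1 and Cdca7, against 1.78% of 27025 gene promoters of the table and 3.07% of the 11268 that belong to tested genes. The letters CCAAT, bound by NF-Y, were in 19 (63.3%) against 37.5% of all promoters and 39.8% of those of tested genes. The E2F and CCAAT letters occurred together in 8 (26.7%) against 0.788% and 1.39%. The letters TTTGAA or TTCGAA, known as CHR in promoters of G2 and mitosis genes, were in 6 (20%) against 19.6% and 14.9%. A match describes letters only and no binding was measured. For each role, the genes with an E2F match in the 200 bases before the start were taken, and the 1 with the smallest edgeR p-value is given. Genes of the role without such a match can have smaller p-values. The 200 bases run 5′ to 3′ on the gene's strand, and the capitals mark the E2F letters or their reverse complement. They are Orc1 at chr4:108579254-108579453 (+ strand), Mcm6 at chr1:128359706-128359905 (- strand), Gins3 at chr8:95633359-95633558 (+), Pola1 at chrX:93632156-93632355 (-), Rfc3 at chr5:151651209-151651408 (-) and Cdca7 at chr2:72476019-72476218 (+).
Orc1: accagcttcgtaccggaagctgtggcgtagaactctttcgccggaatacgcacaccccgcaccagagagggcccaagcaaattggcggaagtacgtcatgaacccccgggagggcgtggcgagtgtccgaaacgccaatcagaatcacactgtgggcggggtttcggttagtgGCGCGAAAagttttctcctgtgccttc
Mcm6: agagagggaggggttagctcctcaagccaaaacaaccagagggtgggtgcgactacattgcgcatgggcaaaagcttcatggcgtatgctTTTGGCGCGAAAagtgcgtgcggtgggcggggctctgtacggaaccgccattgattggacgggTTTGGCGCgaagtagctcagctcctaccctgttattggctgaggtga
Gins3: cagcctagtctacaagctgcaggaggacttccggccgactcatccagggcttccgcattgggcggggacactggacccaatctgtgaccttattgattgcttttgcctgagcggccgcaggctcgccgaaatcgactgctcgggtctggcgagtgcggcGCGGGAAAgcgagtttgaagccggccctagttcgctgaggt
Pola1: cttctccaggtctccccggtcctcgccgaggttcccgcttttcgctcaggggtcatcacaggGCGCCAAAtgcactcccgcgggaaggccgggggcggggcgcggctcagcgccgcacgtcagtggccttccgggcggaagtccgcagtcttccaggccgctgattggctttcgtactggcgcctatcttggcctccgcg
Rfc3: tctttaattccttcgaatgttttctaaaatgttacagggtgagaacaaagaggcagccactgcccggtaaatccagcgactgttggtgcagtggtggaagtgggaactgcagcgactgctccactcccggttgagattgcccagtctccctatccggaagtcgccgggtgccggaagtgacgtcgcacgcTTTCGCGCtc
Cdca7: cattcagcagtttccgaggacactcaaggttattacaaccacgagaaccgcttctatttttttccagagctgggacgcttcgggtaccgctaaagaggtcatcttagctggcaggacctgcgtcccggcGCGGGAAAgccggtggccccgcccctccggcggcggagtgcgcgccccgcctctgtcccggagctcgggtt
Mcm6 carried 3 matches, of which a pair on opposite strands overlap into 1 run of capitals. The other promoters shown carried 1 each.

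As a group, the replication genes were higher in the KO libraries in 35 of 36 cases, but none passed the test on its own. The 36 genes together took 0.104%, 0.0906% and 0.119% of the counts of the 3 KO libraries, and 0.0464%, 0.0871% and 0.0827% of those of WT 1, WT 2 and WT 3. The median log2 fold change (KO minus WT) was 0.58, against 0.03 over the 14553 genes tested, and single genes ran from -0.09 for Prim2 to 1.22 for Cdca7. Fold changes above 0 were found for 54.2% of all genes tested. By edgeR's quasi-likelihood test with Benjamini-Hochberg adjustment over all genes tested, 0 of the 36 were called higher and 0 lower at an adjusted p below 0.05. Of all genes tested, 0.00687% were called higher and 0.151% lower. At an unadjusted p below 0.05, 12 genes were higher and 0 lower, against 5.17% and 7.85% of all genes tested. DESeq2 called 1 of the 36 higher (Cdca7) and 0 lower, where it called 0.705% and 2.83% of all genes. With limma-voom 0 were called in either direction, against 0.0137% and 0.186%. The authors' deposited table gave Cdca7 alone of the 36 a false discovery rate below 0.05, at 3.75e-05, followed by Cdt1 at 0.0689 and Gins2 at 0.069.

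Every KO library lay above every WT library for 16 of the 36 genes, and for none did every KO library lie below. Over all genes tested these shares were 9.35% and 10.2%. The 16 were Orc1, Orc6, Cdc6, Cdt1, Mcm2, Mcm3, Mcm4, Mcm6, Gins2, Gins3, Prim1, Pcna, Rfc4, Tyms, Uhrf1 and Cdca7. All 4 licensing genes and 4 of the 6 MCM genes were among them, against 1 of the 6 primase and polymerase genes and 2 of the 8 genes of the clamp, its loader and the lagging strand. The difference between these roles was not tested, and these counts by role hold for TMM scaling. The 16 became 12 with upper-quartile factors, 14 in the deposited TPM and 10 with scaling by epithelial markers.

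The largest departure within a group belonged to WT 1. That library had the lowest value of the 6 for all 36 genes, where 14.7% of all genes tested had their lowest value there. With 2 other scalings of the counts, by median-ratio factors or by epithelial markers, and in the deposited TPM, WT 1 was again lowest for all 36, and with upper-quartile factors for 35. The mean over the 36 genes of log2(CPM + 0.5) was 4.46, 4.22 and 4.65 in the KO libraries, in order of their number, 3.23 in WT 1, and 4.16 and 4.14 in WT 2 and WT 3. KO 2 therefore stood next to WT 2 and WT 3, and WT 1 stood by itself about 1 unit lower. KO 3 had the highest value of the 6 for 25 genes, against 23% of all genes tested. KO 2 had the lowest value of the KO libraries for 27 genes, against 33.9% of all genes.

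**Figure D1:**
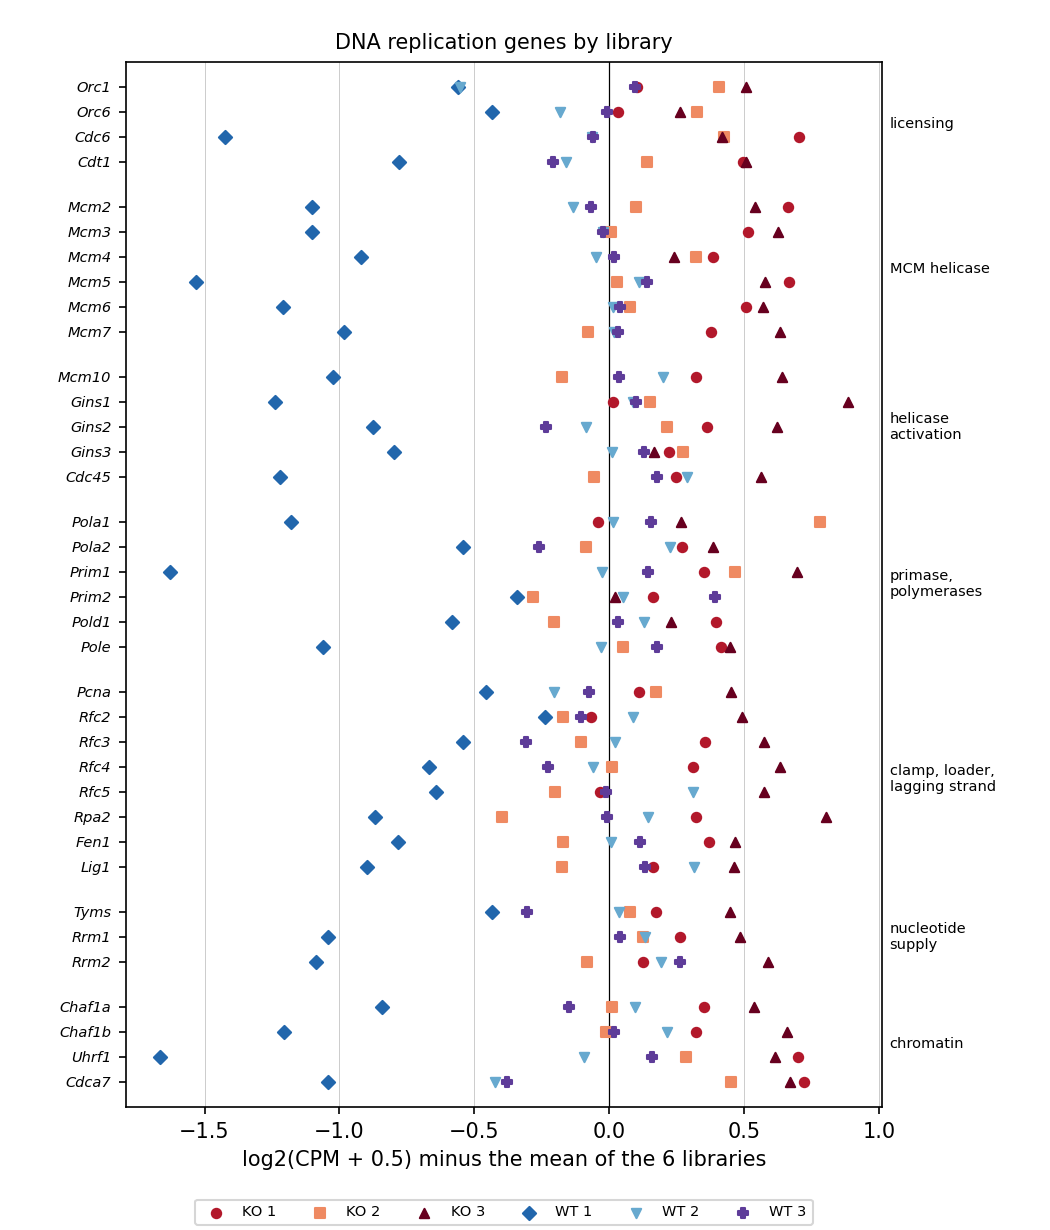
Each of the 36 genes is a row, grouped by role, and each symbol is 1 library, with log2(CPM + 0.5) minus the gene's mean over the 6 libraries on the x axis. WT 1 is leftmost in all 36 rows, and KO 3 is rightmost in 25.

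Set against single WT libraries, the mean of the 3 KO libraries exceeded WT 1 for 36 of 36 genes with a median log2 difference of 1.26, WT 2 for 30 genes with a median of 0.28, and WT 3 for 34 genes with a median of 0.28. KO 3 exceeded WT 2 and WT 3 for 35 genes each, with medians of 0.46 and 0.54. KO 1 exceeded them by medians of 0.29 and 0.32. KO 2 exceeded WT 2 for 19 genes and WT 3 for 22, with medians of 0.03 and 0.10. Over all genes tested, each of these medians lay between -0.02 and 0.02. By these medians, the excess over WT 2 and WT 3 was thus larger in KO 1 and KO 3, and KO 2 was close to WT 2 and WT 3. For the 16 genes without overlap, KO 2 also lay above WT 2 and WT 3.

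Without WT 1, the median of the 36 genes was 0.32, against 0.03 over all genes, and 33 genes were above 0 (53.4% of all genes). At an unadjusted p below 0.05, 6 were higher and 0 lower in edgeR, against 2.33% and 6.12% of all genes. These 6 were Cdc6, Cdt1, Mcm2, Gins2, Uhrf1 and Cdca7. None was called after adjustment, when 0.00678% of all genes were called higher and 0.0339% lower. The 16 genes without overlap cannot change on leaving out WT 1, because it held the lowest value for each of the 36. Over the 14553 genes tested with all 6 libraries, on the scaling of that fit, 12.8% had all KO values above WT 2 and WT 3. All KO values were below for 13.7%, against 0 of the 36. Without KO 3 the median was 0.42 and 5 genes had an unadjusted p below 0.05 in the KO direction (4.31% of all genes) and 0 in the other (7.21%). Without both KO 3 and WT 1 the median was 0.24, with 27 genes above 0 and 4 at that p (2.38% of all genes).

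**Figure D2:**
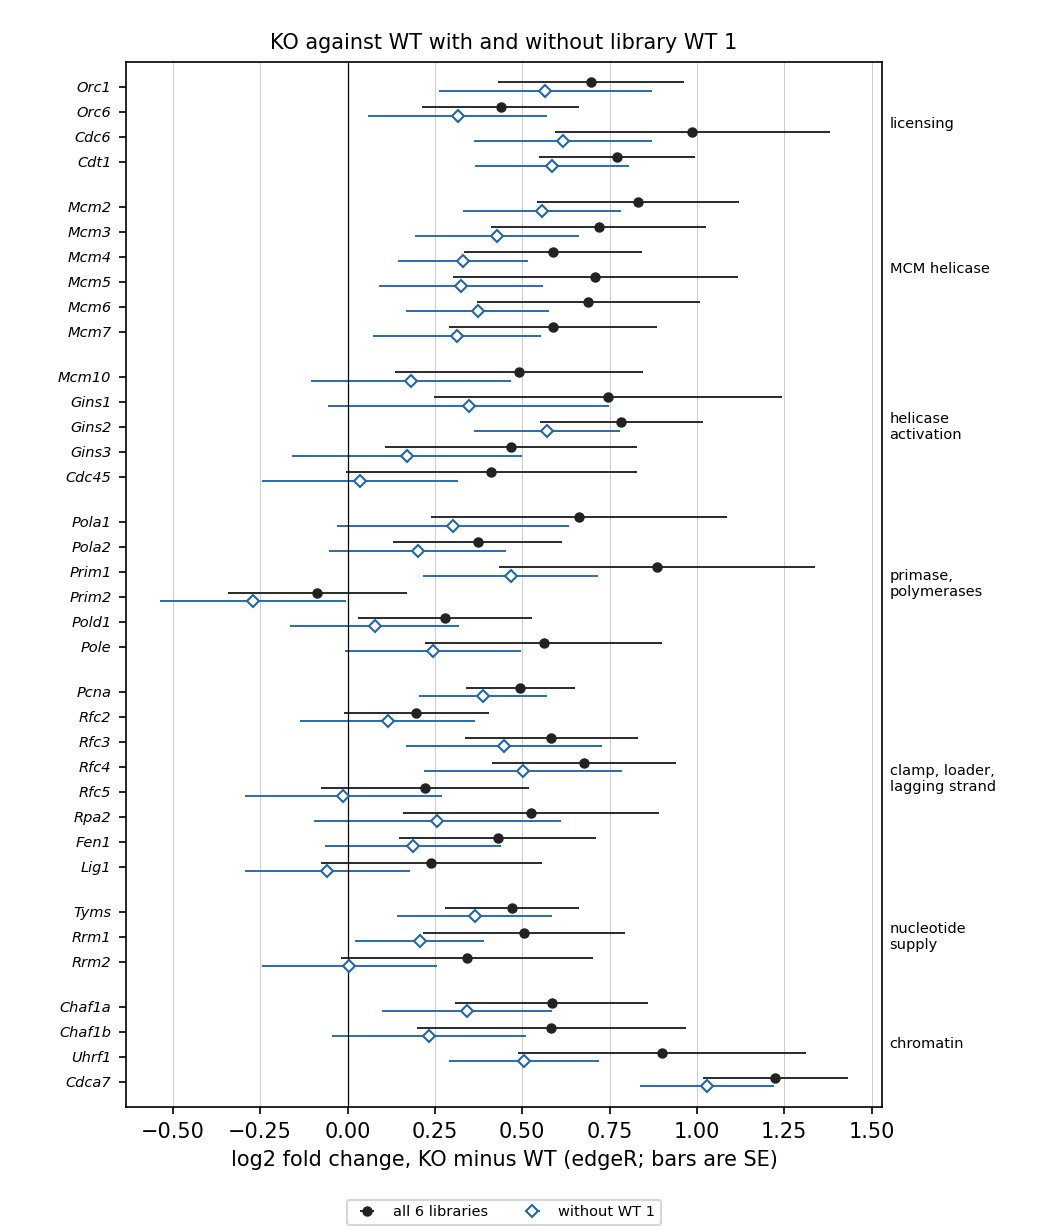
Fold changes on the log2 scale (KO minus WT, edgeR) with standard errors as bars are plotted for the 36 genes, with all 6 libraries (filled) and without WT 1 (open). The open symbol lies to the left of the filled one in every row, and the median moves from 0.58 to 0.32.

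Cdca7 stood out among the 36. It encodes a zinc finger protein that recruits the remodeller HELLS to chromatin and that is itself an E2F target. The gene (ENSMUSG00000055612, chr2:72476159-72486893, GRCm38) measured 58.9, 48.8 and 56.8 CPM in the KO libraries and 17, 26.3 and 27.2 CPM in the WT libraries. The lowest KO value was well above the highest WT value, and the group means were 54.8 ± 5.34 and 23.5 ± 5.66 CPM (SD, n = 3 each). The log2 fold change was 1.22 ± 0.21 (SE), a 2.34-fold higher level, with a 95% interval of 0.75 to 1.70. Its edgeR p was 0.000342 and its adjusted p was 0.072, above the threshold, whereas the adjusted p of DESeq2 was 3.24e-05. Without WT 1 the log2 fold change of Cdca7 was 1.03 ± 0.19 (edgeR, unadjusted p = 0.000814), and over the fits without 1 library it lay between 1.03 and 1.34, with adjusted p between 0.0833 and 0.237.

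The other chromatin genes showed smaller differences. With Cdca7, the 4 had a median log2 fold change of 0.74, or 0.42 without WT 1. Uhrf1, which brings the maintenance DNA methyltransferase to newly copied DNA, measured 52.0, 38.8 and 49.0 CPM in the KO libraries and 9.71, 29.8 and 35.6 CPM in the WT libraries. The groups did not overlap, WT 1 lay far below the other WT libraries, and the log2 fold change was 0.90 ± 0.41 (edgeR, adjusted p = 0.401). Chaf1a, the large subunit of the chromatin assembly factor that deposits histones behind the fork, measured 19.5, 15.2 and 22.2 CPM in the KO and 8.21, 16.2 and 13.6 CPM in the WT libraries. KO 2 lay below WT 2, and the log2 fold change of 0.58 ± 0.28 had an edgeR adjusted p of 0.417. Of the exon bases of Chaf1a, 52.5% are also exon of Ubxn6 on the other strand, and the sources used here do not say whether the counting used strand. Chaf1b, the partner subunit, measured 12.2, 9.54 and 15.5 CPM in the KO and 3.89, 11.3 and 9.77 CPM in the WT libraries. KO 2 lay below WT 2 and WT 3, and the log2 fold change was 0.58 with an SE of 0.39.

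With TMM scaling, the licensing genes showed no overlap between the groups for any of the 4. Their median log2 fold change was 0.73, or 0.58 without WT 1. Cdt1, which brings the MCM ring to origins (ENSMUSG00000006585, chr8:122568015-122573554), measured 24.7, 19.1 and 24.8 CPM in the KO and 9.88, 15.4 and 14.9 CPM in the WT libraries. All KO values exceeded all WT values, by a log2 fold change of 0.77 ± 0.22 (95% interval 0.26 to 1.29, edgeR adjusted p = 0.219). Orc1, the ATPase subunit of the origin recognition complex, measured 8.63, 10.8 and 11.6 CPM in the KO and 5.26, 5.30 and 8.59 CPM in the WT libraries. WT 3 came within 0.1 CPM of KO 1, and the log2 fold change was 0.70 ± 0.27 (edgeR adjusted p = 0.336). Cdc6, the loader that joins the origin recognition complex, measured 10.8, 8.86 and 8.80 CPM in the KO and 2.10, 6.16 and 6.17 CPM in the WT libraries. Its log2 fold change of 0.99 ± 0.39 (edgeR adjusted p = 0.35) was 0.62 ± 0.26 without WT 1. Orc6, another subunit of the complex, measured 7.35, 9.11 and 8.69 CPM in the KO and 5.17, 6.26 and 7.13 CPM in the WT libraries. It differed by 0.44 ± 0.22 on the log2 scale and also did not overlap, but WT 3 at 7.13 CPM was close to KO 1 at 7.35 CPM. Margins as narrow as those of Orc1 and Orc6 can depend on the scaling.

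The 6 MCM genes encode the ring that unwinds DNA, and their products work in equal numbers. Their median log2 fold change was 0.70, with 3 of 6 at an unadjusted p below 0.05, and without WT 1 it was 0.35, with 1 of 6. Mcm2 (ENSMUSG00000002870, chr6:88883474-88898780) measured 59.4, 40.1 and 54.6 CPM in the KO and 17.1, 34.0 and 35.6 CPM in the WT libraries, with a log2 fold change of 0.83 ± 0.29 (edgeR adjusted p = 0.293). KO 2 was the lowest KO library and WT 1 lay far below the other WT libraries. Mcm3 measured 50.1, 35.1 and 54.2 CPM in the KO and 16.0, 34.4 and 34.4 CPM in the WT libraries, so that KO 2 cleared WT 2 and WT 3 by under 1 CPM. Mcm4 measured 33.4, 32.0 and 30.2 CPM in the KO and 13.3, 24.7 and 25.8 CPM in the WT libraries, and here the KO libraries were closer to each other than for the other MCM genes named. Mcm6 measured 87.6, 64.7 and 91.5 CPM in the KO and 26.3, 62.0 and 63.1 CPM in the WT libraries. The log2 fold changes of Mcm3, Mcm4 and Mcm6 were 0.72 ± 0.31, 0.59 ± 0.25 and 0.69 ± 0.32, with edgeR adjusted p of 0.382, 0.382 and 0.406. Mcm7 measured 58.1, 42.2 and 69.4 CPM in the KO and 22.3, 45.2 and 45.6 CPM in the WT libraries. For Mcm5 (0.71 ± 0.41) and Mcm7 (0.59 ± 0.30) KO 2 lay below WT 2 and WT 3.

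Among the 5 genes of helicase activation the median log2 fold change was 0.49, or 0.18 without WT 1, and Gins2 differed most clearly. It encodes a subunit of the GINS complex (ENSMUSG00000031821, chr8:120578633-120589304) and measured 40.7, 36.7 and 48.7 CPM in the KO and 16.9, 29.6 and 26.7 CPM in the WT libraries. The groups did not overlap, and the log2 fold change was 0.78 ± 0.23 (95% interval 0.25 to 1.32, edgeR adjusted p = 0.227). In the GENCODE annotation 67.3% of the exon bases of Gins2 are also exon of Gse1 on the other strand, so reads of both genes cannot be told apart here if strand was not used. Gins1, another subunit, measured 2.83, 3.16 and 5.58 CPM in the KO and 0.898, 3.01 and 3.03 CPM in the WT libraries, a log2 fold change of 0.75 ± 0.50 that rests on few counts. Mcm10, which helps the helicase leave the origin, measured 16.2, 11.3 and 20.3 CPM in the KO and 6.07, 14.8 and 13.2 CPM in the WT libraries, with KO 2 below WT 2 and WT 3. Cdc45, the helicase cofactor, measured 8.68, 6.94 and 10.9 CPM in the KO and 2.82, 8.96 and 8.25 CPM in the WT libraries. Gins3 and Cdc45 had log2 fold changes of 0.47 and 0.41, and without WT 1 they were 0.17 ± 0.33 and 0.04 ± 0.28. The groups did not overlap for Gins3, but KO 3 at 2.90 CPM (54 counts) was close to WT 3 at 2.81 CPM (50 counts).

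None of the 6 primase and polymerase genes had an unadjusted p below 0.05, and their median log2 fold change was 0.47, or 0.22 without WT 1. Prim1, the catalytic subunit of primase, measured 9.40, 10.2 and 12.1 CPM in the KO and 2.01, 7.13 and 8.08 CPM in the WT libraries. Its groups did not overlap, and the log2 fold change of 0.89 ± 0.45 (edgeR adjusted p = 0.448) was 0.47 ± 0.25 without WT 1. Pole, the leading strand polymerase, measured 12.3, 9.48 and 12.6 CPM in the KO and 4.11, 8.91 and 10.4 CPM in the WT libraries, a log2 fold change of 0.56 ± 0.34. Pola1, the polymerase that extends primers, measured 4.93, 9.11 and 6.23 CPM in the KO and 1.97, 5.14 and 5.73 CPM in the WT libraries, and it was highest in KO 2 where most of the 36 genes were not. Pola2, its partner subunit, measured 21.5, 16.7 and 23.3 CPM in the KO and 12, 20.8 and 14.7 CPM in the WT libraries. Prim2, the other primase subunit, was the only gene of the 36 with a fold change below 0, at -0.09 ± 0.26 on the log2 scale (95% interval -0.68 to 0.50). It measured 10.2, 7.37 and 9.23 CPM in the KO and 7.06, 9.42 and 12.1 CPM in the WT libraries, with WT 1 lowest and WT 3 highest.

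The sliding clamp and its partners had a median log2 fold change of 0.46, with 3 of 8 genes at an unadjusted p below 0.05 and KO 3 highest for all 8. Without WT 1 the median was 0.22, with 6 of 8 above 0 and 0 at that p, and without KO 3 it was 0.25, with 1 at that p. Pcna, the clamp itself (ENSMUSG00000027342, chr2:132249162-132253314), measured 99.4, 104 and 126 CPM in the KO and 66.8, 79.8 and 87.2 CPM in the WT libraries. Its groups did not overlap, and its SE was the smallest of the 36 genes, with a log2 fold change of 0.49 ± 0.16 (95% interval 0.13 to 0.86, edgeR adjusted p = 0.254). Rfc4, of the loader that opens the clamp, measured 10.4, 8.36 and 13.1 CPM in the KO and 5.05, 7.95 and 7.02 CPM in the WT libraries, a log2 fold change of 0.68 ± 0.26 without overlap. Rfc3, of the same loader, measured 16.2, 11.6 and 18.9 CPM in the KO and 8.47, 12.7 and 10.05 CPM in the WT libraries, and KO 2 lay between WT 3 and WT 2. Fen1, which trims lagging strand flaps, measured 25.1, 17.1 and 26.9 CPM in the KO and 11, 19.4 and 20.9 CPM in the WT libraries, and 78.8% of its exon bases are shared with an antisense transcript. Rfc2, another loader subunit, measured 36.9, 34.2 and 54.5 CPM in the KO and 32.7, 41.1 and 35.9 CPM in the WT libraries, and KO 3 stood above the rest. Rpa2, Rfc2, Rfc5 and Lig1 had log2 fold changes of 0.52, 0.20, 0.22 and 0.24. Without WT 1 those of Rfc5 and Lig1, the ligase that seals the lagging strand, were -0.01 ± 0.28 and -0.06 ± 0.24.

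The 3 genes of nucleotide supply had log2 fold changes of 0.34 to 0.51, with a median of 0.47 that was 0.21 without WT 1. Tyms, thymidylate synthase, measured 29.1, 27.2 and 35.3 CPM in the KO and 18.9, 26.4 and 20.8 CPM in the WT libraries, with all KO values higher and a log2 fold change of 0.47 ± 0.19 (edgeR adjusted p = 0.359). Rrm1 and Rrm2 encode the subunits of ribonucleotide reductase. Rrm1 measured 66.0, 59.9 and 77.1 CPM in the KO and 26.4, 60.3 and 56.5 CPM in the WT libraries. Rrm2, the subunit whose level follows S phase, measured 21.4, 18.5 and 29.7 CPM in the KO and 8.98, 22.5 and 23.6 CPM in the WT libraries. For Rrm2 both KO 1 and KO 2 lay below WT 2 and WT 3, and its log2 fold change was 0.34 ± 0.36.

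Levels between genes were compared per transcript length with the deposited TPM. Pcna was the most abundant of the 36 in both groups, with group means of 128 TPM in the KO and 94.5 TPM in the WT. In the KO it was followed by Mcm6 at 48.7, Tyms at 42.7, Mcm7 at 41.9 and Cdca7 at 39.97 TPM, and in the WT by Mcm7 at 33.3, Tyms at 32.3, Mcm6 at 31.7 and Rrm1 at 23.9 TPM. The lowest in both groups were Pola1 and Gins3, with 1.87 TPM each over the 6 libraries, followed by Pole at 3.71. Over the 6 libraries, the MCM genes ran from 13.4 TPM for Mcm4 to 40.2 TPM for Mcm6, and Rfc2 to Rfc5 from 12.6 to 17.7 TPM. Between neighbours in the order over the 6 libraries, the gap exceeded the largest SD of either gene within a group only between Pcna and Mcm6.

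**Figure D3:**
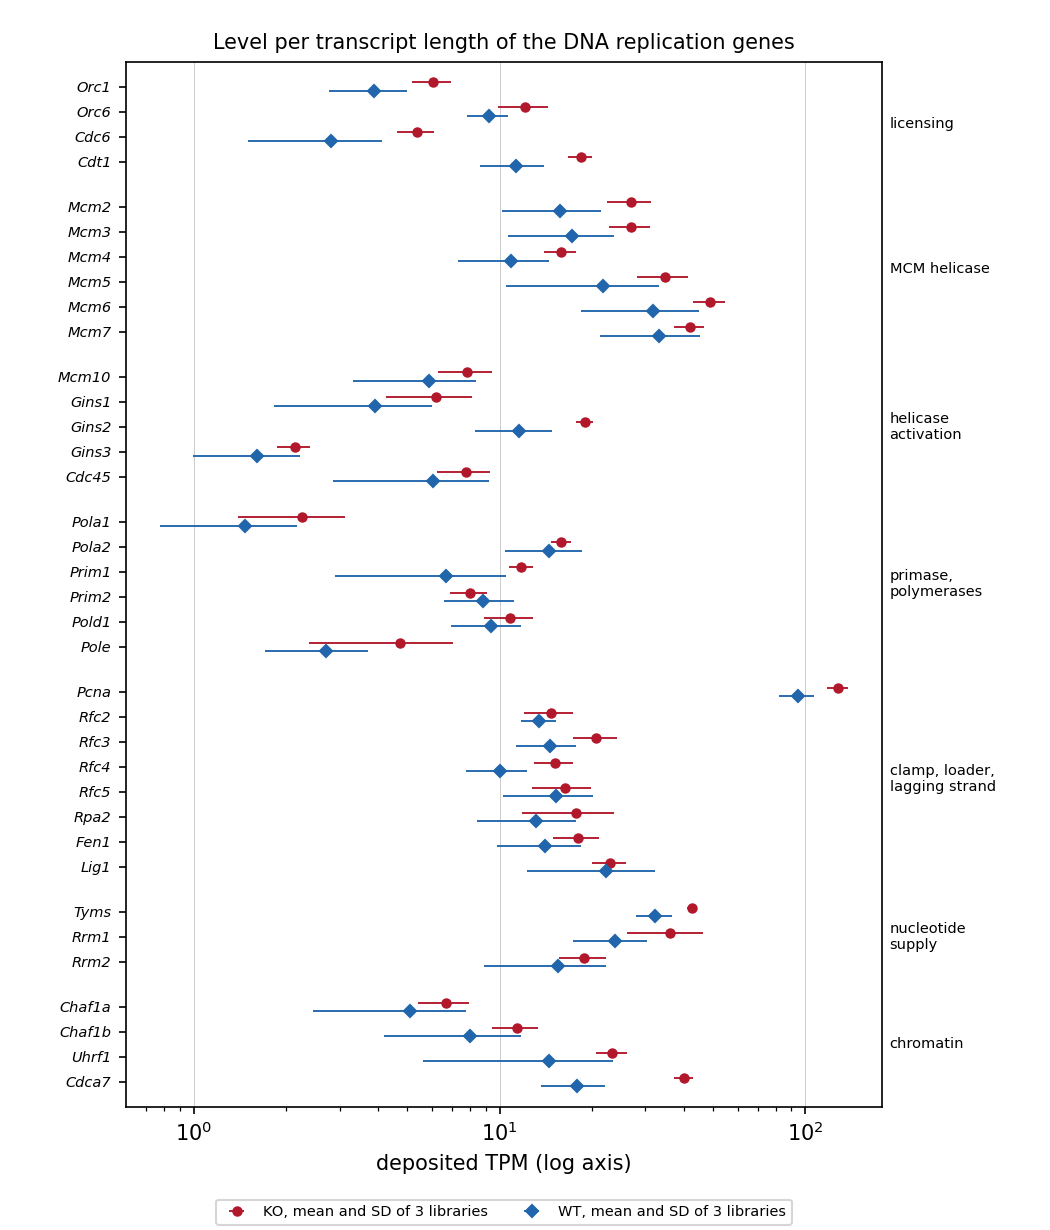
Mean deposited TPM on a log axis with SD over 3 libraries is plotted for each of the 36 genes in the KO and WT groups. Pcna lies at 111 TPM on average and Pola1 and Gins3 at 1.87, and the WT bars are wide for many genes.

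Other genes of the replication machinery, 37 in all, shared the direction with smaller differences. Their median log2 fold change was 0.43, and 0.27 without WT 1, with 34 of 37 above 0. At an unadjusted p below 0.05, 8 were higher and 0 lower in the KO, against 5.17% and 7.85% of all genes. By edgeR's adjusted p 0 were called in either direction, and by DESeq2 0. Cdc7 and Dbf4, the kinase and its activator that fire licensed origins, had log2 fold changes of 0.99 ± 0.28 and 0.82 ± 0.24 (edgeR adjusted p of 0.211 and 0.219). Without WT 1, 2 were higher at an unadjusted p below 0.05 (2.33% of all genes). Without KO 3 the median was 0.27, with 3 higher at that p (4.31% of all genes). WT 1 was lowest for 23 of the 37. Of the 35 genes that the deposited annotation places in the KEGG DNA replication pathway, 20 were among the 36. The remaining 15 had a median of 0.34, with 4 higher at an unadjusted p below 0.05 (5.17% of all genes). These values were 0.29 and 0 without WT 1, and 0.20 and 0 without KO 3.

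Genes of G1/S control and the E2F family had a median log2 fold change of 0.38 over 25 genes, with 5 at an unadjusted p below 0.05 in the KO direction and 0 in the other. Without WT 1 the median was 0.21 and 0 genes were at that p. Ccnd1, the cyclin that starts the passage through G1, measured 165, 139 and 125 CPM in the KO and 70.9, 107 and 109 CPM in the WT libraries, without overlap (log2 fold change 0.58 ± 0.20, edgeR adjusted p = 0.285). Myb, a transcription factor of cycling progenitor cells, differed by 0.69 ± 0.24 but KO 3 lay below WT 3. Of 6 CDK inhibitors tested, 0 had an unadjusted p below 0.05, and the median was -0.17, or -0.30 without KO 3. Cdkn1a, which encodes p21, differed by -0.26 ± 0.14, and Cdkn2b, which encodes p15, by 0.49 ± 0.25. Among 19 other genes of nucleotide supply, 3 were higher and 1 lower at an unadjusted p below 0.05 with a median of 0.32, but without WT 1 these counts were 0 and 1 and the median was 0.11. The lower one was Ctps, CTP synthase, at -0.65 ± 0.17 (edgeR adjusted p = 0.19), which DESeq2 called (adjusted p = 0.0455). Gart, of purine synthesis, differed by 0.50 ± 0.17. Replication-coupled chromatin genes (15 genes, median 0.38, 3 at an unadjusted p below 0.05, or 0.16 and 1 without WT 1) had the smallest p-values for Cdca7l, a relative of Cdca7, at 0.61 ± 0.18, and Nasp, a histone chaperone, at 0.74 ± 0.24. Hells, the remodeller that CDCA7 recruits and a gene chosen after its values were seen, differed by 1.10 ± 0.49. Replication stress genes (18 genes, median 0.40, 1 at an unadjusted p below 0.05, or 0.18 and 0 without WT 1) were led by Exo1, a repair nuclease, at 0.92 ± 0.38, and Brca2, which protects stalled forks, at 0.83 ± 0.37. None of these 2 lists held a gene called by edgeR or DESeq2. Beside the counts of this paragraph, 5.17% of all genes tested were higher and 7.85% lower at an unadjusted p below 0.05. Without WT 1 these shares were 2.33% and 6.12%. DESeq2 called 0.705% of all genes higher and 2.83% lower.

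Genes of G2 and mitosis, which act after S phase, had a median log2 fold change of 0.55 over 20 genes, and 0.19 without WT 1. WT 1 was lowest for 20 of 20, as for the replication genes. The libraries were otherwise ordered differently. Mki67, a marker of cycling cells, measured 47.9, 130 and 61.3 CPM in the KO and 20.7, 72.3 and 67.6 CPM in the WT libraries, so that KO 2 was highest and KO 1 and KO 3 lay below WT 2 and WT 3. Cdk1, the mitotic kinase, measured 28, 29.2 and 38.5 CPM in the KO and 13.3, 26.5 and 22.3 CPM in the WT libraries, without overlap. It was the 1 gene of the 20 with an unadjusted p below 0.05, against 5.17% of all genes higher at that p. Kif11, a spindle motor, differed by 0.97 ± 0.43. The mean log2 CPM of the 36 replication genes minus that of the G2 and mitosis genes was 0.38, -0.37 and 0.06 in the KO and 0.29, -0.17 and 0.00 in the WT libraries. The spread of this difference within each group exceeded the difference between the group means, -0.01.

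**Figure D4:**
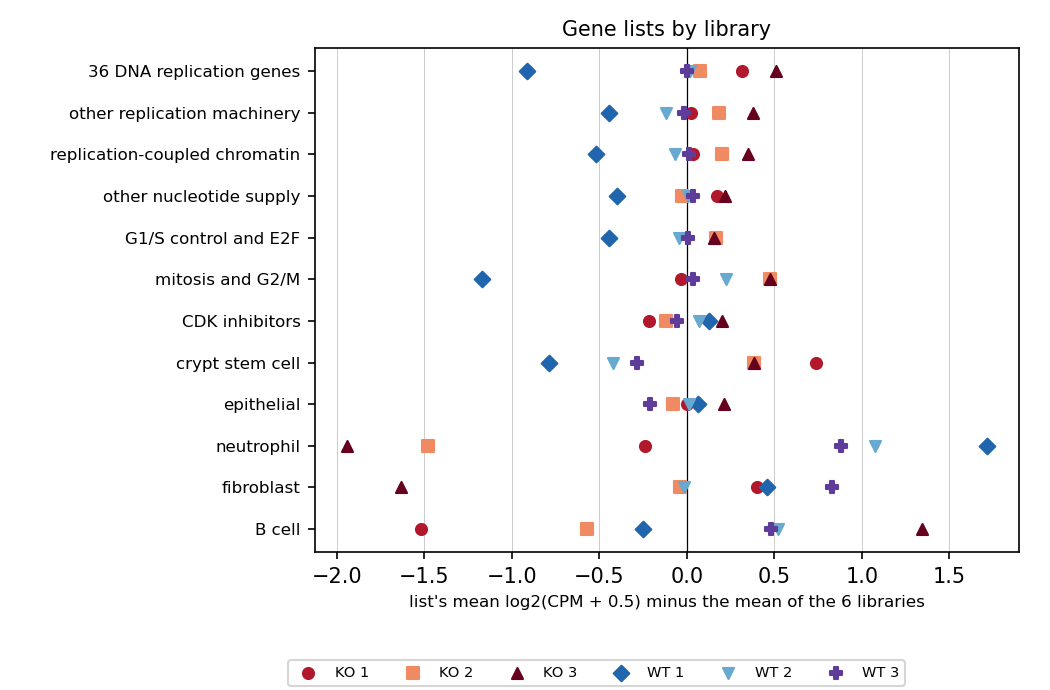
For each gene list the mean log2(CPM + 0.5) in each of the 6 libraries, minus the mean of the 6, is plotted. WT 1 is lowest in the replication, G2 and mitosis and crypt stem cell lists, near the middle in the epithelial list and highest in the neutrophil list.

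Markers of the cell types that a piece of colon can hold were set beside the replication genes. The epithelial list (11 genes, median log2 fold change 0.09, 0 at an unadjusted p below 0.05) had a mean log2 CPM of 10.1 in WT 1 and 9.80 to 10.2 in the other libraries, so it did not share the low value of WT 1. The replication mean minus the epithelial mean was -6.84 in WT 1, -5.86 and -5.65 in WT 2 and WT 3, and -5.55, -5.71 and -5.57 in the KO libraries. Scaled by the epithelial markers, the median of the 36 genes was 0.45, against -0.05 for all genes, and 3 genes had an unadjusted p below 0.05 (1.89% of all genes).

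The crypt stem cell list was higher in the KO libraries, with a median of 0.93 over 10 tested genes. Of these, 8 were higher at an unadjusted p below 0.05, against 5.17% of all genes. By edgeR 0 were called, and DESeq2 called 7 higher, against 0.705% of all genes. The summed level of the list was 578 to 764 CPM in the KO and 422 to 482 CPM in the WT libraries. Lgr5, the receptor that marks these cells, measured 8.89, 8.30 and 6.98 CPM in the KO and 0.513, 2.14 and 2.47 CPM in the WT libraries, without overlap (log2 fold change 2.25 ± 0.50, edgeR adjusted p = 0.127, DESeq2 adjusted p = 0.000332). Tnfrsf19 and Ephb3, receptors of the crypt base, differed by 1.33 ± 0.27 and 1.01 ± 0.21 (DESeq2 adjusted p of 0.00511 and 0.00143). Another gene of the list, Olfm4, did not pass the expression filter of edgeR, with 0 to 5 counts in the KO and 4 to 23 in the WT libraries (DESeq2 adjusted p = 0.518). Without WT 1 the median of the list was 0.83, and 7 genes were higher at an unadjusted p below 0.05 (2.33% of all genes).

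The neutrophil list was lower in the KO libraries, with a median of -2.59 over 9 tested genes and a summed level of 12.7 to 65.4 CPM in the KO and 123 to 230 CPM in the WT libraries, highest in WT 1. Of these 9, 6 had an unadjusted p below 0.05 in the WT direction, against 7.85% of all genes. By edgeR 0 were called and by DESeq2 5, against 0.151% and 2.83% of all genes called lower. Mmp8, a collagenase of neutrophil granules, measured at most 0.976 CPM in the KO and at least 4.88 CPM in the WT libraries. Ngp, also of the neutrophil list, measured at most 0.0514 and at least 1.12 CPM, and Ltf, lactoferrin, at most 3.29 and at least 8.61 CPM. Germinal centre B cells also cycle. Their list summed to 33.2 to 46.9 CPM in the KO and 60.9 to 65.7 CPM in the WT libraries (6 of 8 tested, 3 lower in the KO at an unadjusted p below 0.05, led by Fas at -0.66 ± 0.22 and Bcl6 at -0.72 ± 0.29). The share of all genes lower at that p was 7.85%. Without WT 1, 0 of the germinal centre genes were at that p, against 6.12% of all genes. The median log2 fold change of this list was -0.69, or -0.65 without WT 1 and -0.47 without KO 3. The B cell list was highest in KO 3, at 119 CPM, against 15.9 to 78.6 CPM elsewhere (median log2 fold change -0.13, or -1.41 without KO 3 and -0.38 without WT 1), and the fibroblast list was lowest there, at 661 CPM, against 2224 to 4608 CPM. Pdpn and Dcn, of stromal cells, differed by -1.26 ± 0.34 and -1.17 ± 0.46. The fibroblast median was -0.54, or -0.18 without KO 3. The medians of the macrophage and endothelial lists were both -0.80, that of the T and NK cell list was -0.21, and those of the goblet cell, absorptive colonocyte, smooth muscle and erythroid lists were 0.21, -0.02, 0.59 and -2.31. Without KO 3, the macrophage, endothelial, T and NK cell, goblet cell and absorptive colonocyte medians were -0.45, -0.46, -0.84, 0.41 and -0.08. Without WT 1, the T and NK cell, goblet cell, absorptive colonocyte and smooth muscle medians were -0.45, 0.09, 0.21 and 0.89. None of their genes was called by edgeR, and DESeq2 called 1 goblet cell and 3 smooth muscle genes higher and 1 endothelial and 2 erythroid genes lower. Over all genes DESeq2 called 0.705% higher and 2.83% lower. The part of the crypt stem cell, neutrophil, B cell and fibroblast levels in the differences of the replication genes was not tested.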

How the data were processed

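RNA-seq of colon was analysed in 6 libraries, made from Trizol-extracted total RNA with a SMARTER kit, per the labels' protocols. Builds GRCm38, mm10 and mm39 appear, without a role, in the submitters' processing notes. The aligner, counting program, annotation and strand setting are unstated: not given in the sources used here. Read counts per gene are whole numbers as the authors deposited them. The deposited TPM served for levels between genes and for 1 alternative. The deposited log2 fold change, p-value and false discovery rate are the authors' own comparison, with no tool named.

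Genes were tested with edgeR 4.0.16 in R 4.3.3 (glmQLFit and glmQLFTest, quasi-likelihood). Counts were scaled by TMM, filterByExpr by group kept 14553 genes, and p-values had Benjamini-Hochberg adjustment over all of them, with a threshold of 0.05. All 36 members passed that filter. The common dispersion was 0.084, with 4.14 prior degrees of freedom. The SE comes from the F statistic and is approximate. CPM is scaled by the TMM factors, and mean log2 levels add 0.5 CPM. DESeq2 1.42.0 and limma 3.58.1 (voom, and log2(TPM + 1)) were alternatives, beside other scalings, filters, a replicate block and leaving out each library. The fitting steps were tested on simulated data. No 2 libraries agreed within counting noise. Replicate numbers did not pair the libraries.

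The members and all gene lists were chosen with earlier results of these data known. Values per library are given for the 3 members of each role with the smallest p (4 in roles of 6 or more), for the smallest change in a role, and for at most 4 members of the other lists described, in order of p, besides Adamts4, Mki67 and Lgr5. Gene positions and exon overlaps are those of GENCODE M21 on GRCm38, matched by Ensembl identifier. Fits without WT 1 by DESeq2 and voom, and without KO 3 and WT 1, were chosen after seeing the data.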

Additional observations from a re-analysis of the deposited data

How the results depend on the processing

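Of the values of single replication genes under the other settings, 533 kept their direction and their side of the threshold, 6 reversed and 1, Cdca7 with DESeq2, passed it. On the log2 scale, Prim2 turned to 0.033 without KO 2 and to 0.12 without WT 3, within a range of -0.27 to 0.12 over the fits without 1 library. Rfc2 turned to -0.039 without KO 3. Rfc5 turned to -0.052 without KO 3 and -0.013 without WT 1 (highest 0.46), and Lig1 to -0.059 without WT 1 (highest 0.48). The median of the 36 genes ranged from 0.32 without WT 1 to 0.73 without WT 2 when 1 library was left out, and from 0.45 with the epithelial scale to 0.65 with voom with all 6 libraries. Without WT 1 it was 0.32 with DESeq2 and 0.29 with voom, and without KO 3 and WT 1 it was 0.24. Of the 36, 1 was called higher by DESeq2, by DESeq2 without WT 1 and at an adjusted p below 0.1. The count of 12 genes at an unadjusted p below 0.05 was 15 with DESeq2, 16 with voom, 8 with upper-quartile factors and 9 on log2(TPM + 1). The shares of all genes higher at that p were 4.55%, 5.07%, 4.11% and 3.54%. With the epithelial scale the count was 3 (1.89% of all genes), and over the edgeR fits without 1 library it was 5 to 14. It was 5 without KO 1 (6.91%), 5 without KO 3 (4.31%), 12 without WT 3 (3.69%) and 14 without WT 2 (3.12%). Without WT 1 it was 6 with DESeq2 (2.63%) and 6 with voom (2.21%). Without both KO 3 and WT 1 it was 4 (2.38%). The 16 genes without overlap became 12 with upper-quartile factors, 14 in the deposited TPM and 10 with the epithelial scale. The shares of all genes with every KO value higher were 7.41%, 6.79% and 4.95%. Without 1 library the 16 became 16 to 28, the highest without KO 2. With fewer libraries that share rises for all genes, to between 12% (without WT 1) and 17.5% (without KO 1). It was 16.5% without KO 2, and 12.8% without WT 1 when the scaling of all 6 libraries was kept. The cause was not tested.

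Over all genes, 1 was called higher in the main test. That count was 0 with median-ratio factors and with the epithelial scale, 108 with DESeq2, 2 with voom, 3 without a count filter, 2 on log2(TPM + 1), 20 at an adjusted p below 0.1, and 0 to 2 without 1 library. The 22 called lower became 9, 38 and 1 with median-ratio, upper-quartile and epithelial scales, 434 with DESeq2, 66 without a count filter, 66 on log2(TPM + 1), 114 at an adjusted p below 0.1, and 1 to 29 without 1 library. With the replicate number as a block, 3 genes were called higher and 78 lower over all genes, 0 of the 36 were called, and 11 had an unadjusted p below 0.05. Correlations of same-numbered libraries were -0.45, -0.17 and -0.47, so the numbers did not pair the libraries. With 3 libraries a group, the spread between libraries was a biological coefficient of variation of 29.0%, from the common dispersion over all genes tested. How much counting noise added for genes with few counts was not tested.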
